A study of Mus musculus with 6 samples.

Results

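RGS proteins (regulators of G-protein signalling) are the off switches of G-protein-coupled receptors, and 10 of their genes, Rgs1, Rgs2, Rgs3, Rgs4, Rgs5, Rgs10, Rgs12, Rgs14, Rgs16 and Rgs17, were read in every library by their gene symbols, out of 39179 genes listed. Ocy454 is a mouse osteocytic cell line that grows at 33 °C and takes on osteocyte properties at 37 °C. All cells were kept for 14 days at 37 °C, given fresh medium a day before collection, and then treated for 4 h with vehicle, with 1 nM PTH 1-34, the active fragment of parathyroid hormone, or with 0.5 µM YKL-05-093, a compound that blocks the salt-inducible kinases (SIKs). The study reports that the compound also targets other kinases in vitro. By its account, most of the genes it measured needed SIK2 and SIK3 to respond to the compound, and a minority responded without them. Whether the RGS changes depend on SIKs was not tested here. The sample labels give the vehicle as PBS with HCl, whereas the methods of the study name DMSO as the solvent of compounds for cell experiments, so which solvent the vehicle libraries received is not settled. Each condition has 2 libraries, made with a directional kit from total RNA depleted of ribosomal RNA. The cells carry no genetic change that differs between the conditions, and 1 cell line stands for all of them.

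When a hormone activates its receptor, the receptor loads GTP onto the alpha subunit of a G protein, which then signals until the GTP is hydrolysed. The RGS domain speeds that hydrolysis and so shortens the signal. Most of these proteins act on alpha subunits of the Gi and Gq classes, and Rgs2 acts mainly on Gq and is also known to dampen signalling from Gs to adenylyl cyclase. The PTH receptor couples to Gs, which raises cAMP, and to Gq, and Rgs2 is a known cAMP-induced gene of bone cells. SIKs are known targets of protein kinase A, which cAMP activates, and the comparisons ask which RGS transcripts changed with the hormone, with the SIK inhibitor, and differently between them.

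Rgs2 lies on mouse chromosome 1 (GRCm38 chr1:143999338-144004161, minus strand, ENSMUSG00000026360) and Rgs3 on chromosome 4 (chr4:62559847-62704001, plus strand, ENSMUSG00000059810). The sequence before their transcription starts is shown because these were the members that changed. That of Rgs4 (chr1:169741477-169747642, minus strand, ENSMUSG00000038530) is also shown, as it holds the same letters and was tested but not called. Whether these letters played a part in any change was not tested. The sequences come from RefSeq on GRCm38.p6 and hold the 250 bases before the start, 5′ to 3′ on the strand of the gene. Capitals mark TGACG on either strand (printed as CGTCA when it lies on the other), the core of the cAMP response element, and TATAAA, the letters of a TATA box. The windows are chr1:144004150-144004399 for Rgs2, chr4:62559597-62559846 and chr4:62619422-62619671 for both Rgs3 starts, and chr1:169747643-169747892 for Rgs4.
Rgs2: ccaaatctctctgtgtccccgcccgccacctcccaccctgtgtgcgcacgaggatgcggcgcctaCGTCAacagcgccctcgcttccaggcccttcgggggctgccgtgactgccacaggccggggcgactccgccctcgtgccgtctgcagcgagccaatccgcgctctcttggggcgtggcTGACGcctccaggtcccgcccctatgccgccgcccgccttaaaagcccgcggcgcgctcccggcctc
Rgs3 upstream start: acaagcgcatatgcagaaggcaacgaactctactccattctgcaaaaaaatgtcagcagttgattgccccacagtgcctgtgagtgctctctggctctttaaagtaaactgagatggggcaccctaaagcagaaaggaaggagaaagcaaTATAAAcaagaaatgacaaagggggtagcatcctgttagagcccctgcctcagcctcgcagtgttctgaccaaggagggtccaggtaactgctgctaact
Rgs3 downstream start: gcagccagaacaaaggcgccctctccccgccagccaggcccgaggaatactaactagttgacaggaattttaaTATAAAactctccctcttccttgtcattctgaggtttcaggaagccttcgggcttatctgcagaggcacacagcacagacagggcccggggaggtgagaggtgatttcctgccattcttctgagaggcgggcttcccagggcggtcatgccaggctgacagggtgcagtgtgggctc
Rgs4: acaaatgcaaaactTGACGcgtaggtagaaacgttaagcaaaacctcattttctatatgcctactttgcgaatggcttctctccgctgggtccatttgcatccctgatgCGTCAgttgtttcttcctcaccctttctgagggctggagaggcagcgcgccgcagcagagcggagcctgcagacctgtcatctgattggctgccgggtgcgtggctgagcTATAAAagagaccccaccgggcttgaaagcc

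The Rgs2 window holds TGACG 2 times, starting at position -185 on the other strand and at -67 on the strand of the gene, counted from the transcription start. The Rgs4 window also holds it 2 times, at -236 and, on the other strand, at -141, with TATAAA at -31. Neither Rgs3 window holds it, and TATAAA lies at -100 in the upstream one and at -177 in the downstream one. A search of both strands of all 32851 RefSeq windows, from 250 bases before to 50 after a start, found TGACG in 20.8%, TATAAA in 13.6% and the full palindrome TGACGTCA, which contains TGACG on both strands, in 1.79%. No window of the 8 members with an entry holds the palindrome. The second start of Rgs12 has TGACG at -82, and Rgs5, Rgs10, Rgs16, Rgs17 and the first start of Rgs12 hold none of the 3 motifs. Rgs1 and Rgs14 have no entry. A match is a description of letters, and binding was not measured.

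The values are RPKM, reads scaled to the length of the gene and to the reads of the library, so levels of different genes can be compared per length only roughly. A single length stands for all forms of a gene, and genes of different length shifted against each other between the vehicle libraries, as given below. The read number behind each value was worked back from the RPKM, as the smallest that fits where no annotated length did, and the libraries hold between 17505798 and 27983585 reads. A gene was tested when it reached 0.5 RPKM in at least 2 of the 6 libraries, and called when limma on log2(RPKM + 0.1) gave a Benjamini-Hochberg adjusted p-value under 0.05 and more than a 2-fold change. Fold changes are on this log2 scale, which understates those of low genes. Of the 10 RGS genes, 9 were above 0 in any library and 6 were tested. The methods call the libraries experimental duplicates, without saying whether they were separate cultures, so p-values measure the spread between these libraries, which may be technical. As bulk RNA, the data cannot tell fewer cells from less RNA per cell.

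Among the 10 members, Rgs10 and Rgs12 had the most abundant transcripts in vehicle-treated cells, Rgs2 and Rgs3 followed, and Rgs4 and Rgs17 were lower. Rgs19, an RGS gene outside the 10, was above Rgs2 with vehicle, at 9.32 ± 2.34 RPKM (SD, n = 2). Rgs2 rose with both treatments, about 2.7-fold with PTH and 5.41-fold with YKL-05-093, and Rgs3 fell with both, 2.93-fold and 2.72-fold. Thus 2 of the 6 tested members were called with PTH, where 1.91% of 14261 genes were called, and the same 2 with YKL-05-093, where 0.666% of 14255 genes were called. Rgs3 reached the filter of 0.5 RPKM only in the vehicle libraries, where it was higher, so its place among the tested genes rests on that group. With a filter of 0.1 RPKM, which Rgs3 passed in every library, its limma adjusted p was 0.0186 with PTH and 0.0573 with YKL-05-093. In the direct comparison of PTH with YKL-05-093, 1 member was called, Rgs2, where 1.21% of genes were called. The vehicle libraries are shared by both comparisons with vehicle, so these are not independent of each other.

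**Figure D1:**
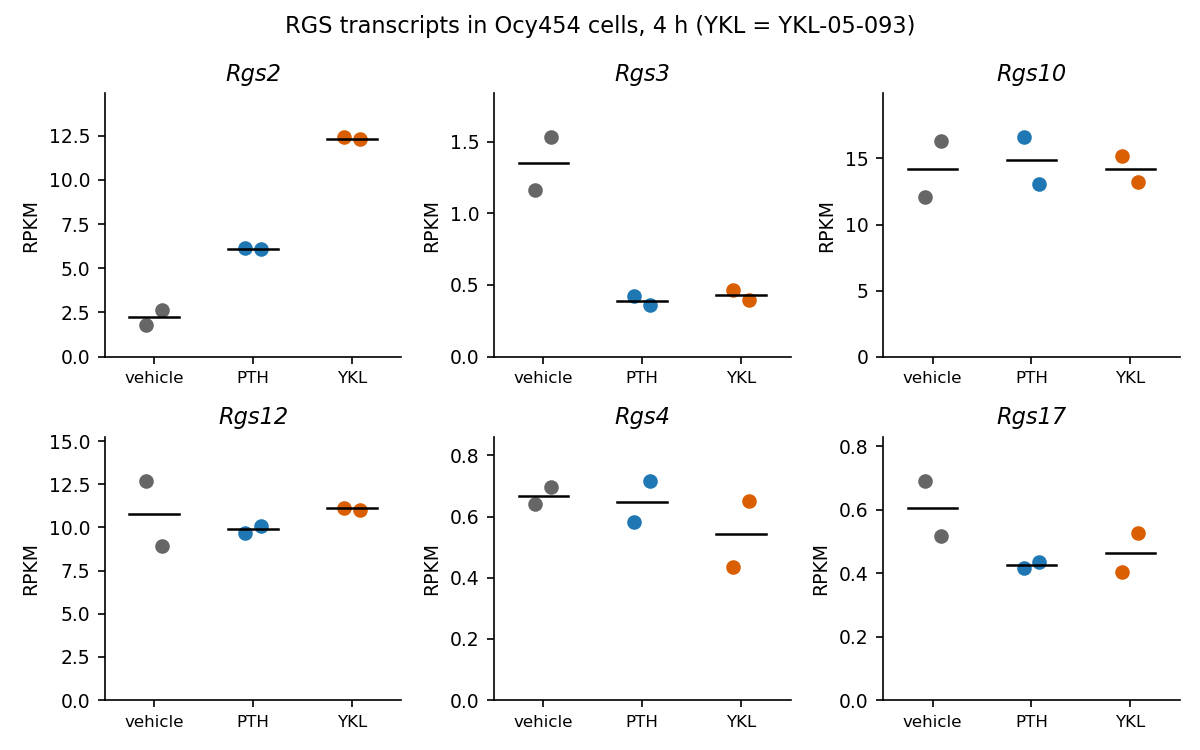
Expression of the 6 tested RGS genes in RPKM (vertical axes, each from 0) in each condition. Points are libraries and lines are means of 2. Rgs2 forms 3 separate levels, near 2.23, 6.1 and 12.3 RPKM, Rgs3 is above 1 RPKM only in the vehicle libraries, and the points of the other genes lie close together or overlap between conditions, except that Rgs17 with PTH lies below vehicle and Rgs12 with PTH below YKL-05-093.

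Rgs2 is a small RGS protein, little more than the RGS domain and a short amino-terminal stretch. The Rgs2 level was 1.81 and 2.66 RPKM in the vehicle libraries (121 and 284 reads), 6.15 and 6.06 RPKM with PTH (507 and 441 reads), and 12.4 and 12.3 RPKM with YKL-05-093 (958 and 970 reads). The groups did not overlap, PTH lying between vehicle and YKL-05-093. Means were 2.23 ± 0.60 RPKM (SD, n = 2) with vehicle, 6.1 ± 0.0635 with PTH and 12.3 ± 0.0859 with YKL-05-093, so the vehicle libraries had the widest spread. The log2 fold change was 1.43 with PTH (SE 0.208, limma adjusted p = 0.0175) and 2.43 with YKL-05-093 (SE 0.208, limma adjusted p = 0.00881).

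Between the treatments, the Rgs2 level was lower with PTH than with YKL-05-093 by a log2 difference of -1.001 (SE 0.078, 95% interval -1.167 to -0.835, limma adjusted p = 3.34e-07). This comparison holds no vehicle library. Its size lies at the 2-fold limit itself, so the call turns on its last decimals. At 0.5 µM and 1 nM only 1 dose of each agent was measured, and the order of the agents holds for these doses and this time.

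Under other settings the size of the Rgs2 changes moved less than their adjusted p. Over 16 alternative settings the log2 fold change was 1.15 to 1.70 with PTH and 2.05 to 2.70 with YKL-05-093. The lowest limma adjusted p, 2.25e-08 with PTH and 6.36e-20 with YKL-05-093, came only from the replicate block, although no pairing by replicate number showed in the values. In 1 fit of all 6 libraries the limma adjusted p was 0.00444 and 0.000889, and without the filter on low values it was 0.139 and 0.14. The PTH call was lost without PTH replicate 1 (log2 fold change 1.42, adjusted p = 0.321) and without PTH replicate 2 (1.44, adjusted p = 0.323), and both calls were lost without the filter on low values or with the variance trend taken over mean expression. The YKL-05-093 call of Rgs2 held with each library left out in turn. In the direct comparison the call was lost with PTH replicate 1 (adjusted p = 0.127), PTH replicate 2 (0.12) or YKL-05-093 replicate 1 (log2 difference -0.99, adjusted p = 0.0132) left out, with a pseudocount of 1 (-0.91, adjusted p = 2.51e-05) and in 1 fit of all 6 libraries (adjusted p = 0.0522).

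Rgs3 is a larger relative of Rgs2 that also accelerates Gi and Gq, and its gene makes several forms, some with a PDZ domain. The annotation lists 17 transcripts, and a value per gene cannot tell them apart. The Rgs3 level was 1.16 and 1.53 RPKM in the vehicle libraries (217 and 458 reads), 0.425 and 0.358 RPKM with PTH (98 and 73 reads), and 0.466 and 0.393 RPKM with YKL-05-093 (101 and 87 reads). Both treated groups lay below both vehicle libraries, and they overlapped each other. Means were 1.35 ± 0.263 RPKM (SD, n = 2) with vehicle, 0.391 ± 0.0469 with PTH and 0.429 ± 0.0519 with YKL-05-093.

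The Rgs3 level fell by 1.55 on the log2 scale with PTH (SE 0.199, limma adjusted p = 0.0111) and by 1.44 with YKL-05-093 (SE 0.202, limma adjusted p = 0.0366). The difference between the treatments was -0.11 (95% interval -0.477 to 0.263, limma adjusted p = 0.793), so a difference of Rgs3 between them was not shown, although the interval allows one within those bounds. Over the 16 alternatives the log2 fold change of Rgs3 was -1.77 to -0.75 with PTH and -1.65 to -0.71 with YKL-05-093. The values nearest 0 are those with a pseudocount of 1, which brought both changes under 2-fold. The YKL-05-093 call of Rgs3 depended on the settings and was lost under 8 of 16, among them leaving out vehicle replicate 1 (adjusted p = 0.0721), YKL-05-093 replicate 1 (0.292) or YKL-05-093 replicate 2 (0.189). The PTH call of Rgs3 was lost under 5 of 16, among them leaving out PTH replicate 1 (adjusted p = 0.186) or PTH replicate 2 (0.297).

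**Figure D2:**
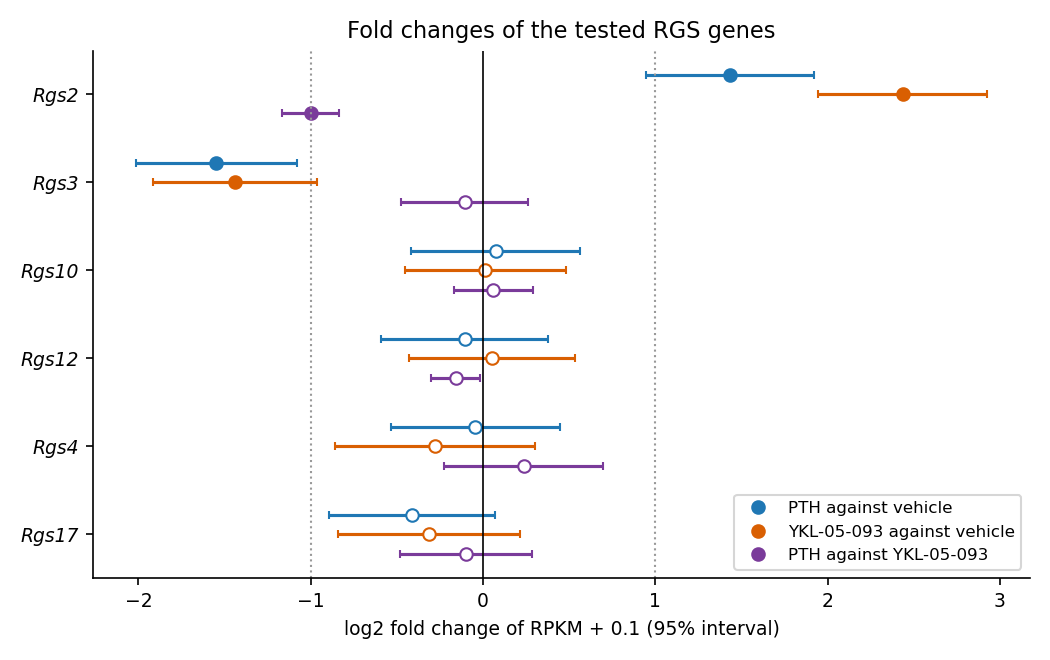
Log2 fold change of RPKM + 0.1 (horizontal axis) of the 6 tested RGS genes with its 95% interval, from limma fits of 4 libraries for each comparison. Filled points are called genes and dotted lines mark 2-fold. Rgs2 lies right of 0 against vehicle and at -1.001 between the treatments, Rgs3 lies left of 0 against vehicle, and all other intervals against vehicle include 0.

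Rgs4 and Rgs5 are small RGS proteins like Rgs2 and sit next to each other on chromosome 1 (chr1:169655501-169695813, plus strand, for Rgs5). The Rgs4 level was 0.642 and 0.696 RPKM with vehicle, 0.581 and 0.717 with PTH and 0.434 and 0.65 with YKL-05-093, from 47 to 104 reads, and the groups overlapped except that one YKL-05-093 library was the lowest of the 6. Its log2 fold change was -0.04 with PTH (95% interval -0.535 to 0.448, limma adjusted p = 0.961) and -0.28 with YKL-05-093 (-0.86 to 0.30, adjusted p = 0.85). Between the treatments it was 0.24 (-0.224 to 0.698, adjusted p = 0.598).

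Rgs5, known for its expression in pericytes, had 2 to 8 reads in each library, at 0.0212 to 0.0904 RPKM, around the level of 3 reads (0.0231 to 0.0369 RPKM), and was not tested. Rgs16 (chr1:153740349-153745468, plus strand) had 2 reads in PTH replicate 1 and none in the other 5 libraries, where 3 reads would be 0.0459 to 0.0734 RPKM. Rgs1, known from lymphocytes, was listed at 0 in all 6 libraries (chr1:144242296-144249242, minus strand), which allows up to 0.0154 to 0.0247 RPKM, taking its length from the annotation. A change of these transcripts was not detectable at this depth. The floors cover counting error only.

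Rgs10 and Rgs12 act on Gi-class alpha subunits, Rgs10 as little more than an RGS domain and Rgs12 as a large scaffold that also binds Ras-family proteins. They were the most abundant of the 10 members in vehicle-treated cells. The Rgs10 level (chr7:128373621-128418758, minus strand) was 12.1 and 16.3 RPKM with vehicle, 16.6 and 13.1 with PTH and 15.2 and 13.2 with YKL-05-093, from 393 to 850 reads. The conditions overlapped throughout. The log2 fold change of Rgs10 was 0.07 with PTH (95% interval -0.417 to 0.563, limma adjusted p = 0.924), 0.01 with YKL-05-093 (-0.452 to 0.481, adjusted p = 0.993) and 0.06 between the treatments (-0.171 to 0.289, adjusted p = 0.822).

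The Rgs12 level (chr5:34949445-35039644, plus strand) was 12.7 and 8.92 RPKM with vehicle, 9.69 and 10.1 with PTH and 11.1 and 11 with YKL-05-093, from 1535 to 1988 reads. The vehicle libraries spanned the values of both treatments. Its log2 fold change was -0.11 with PTH (95% interval -0.59 to 0.376, limma adjusted p = 0.881) and 0.05 with YKL-05-093 (-0.432 to 0.536, adjusted p = 0.971). Between the treatments, where replicates were close, it was -0.16 (-0.30 to -0.018), with an unadjusted limma p of 0.0299 and an adjusted p of 0.164. Exons of Rgs12 overlap Gm43791 on the opposite strand and those of Rgs16 overlap Gm28513. The libraries were directional, but whether the counting used strand is not given in the sources used here, so reads of these pairs may not have been told apart.

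Rgs14, a relative of Rgs12 known from neurons (chr13:55369732-55384687, plus strand), had 6 and 3 reads with vehicle, 0 and 2 with PTH and 2 and 5 with YKL-05-093, at or below 0.13 RPKM, and was not tested. Rgs17, which acts on Gi-class subunits and Gz (chr10:5825663-5922400, minus strand), was at 0.691 and 0.517 RPKM with vehicle, 0.415 and 0.436 with PTH and 0.404 and 0.526 with YKL-05-093, from 76 to 134 reads. Both PTH libraries lay below both vehicle libraries. The log2 fold change of Rgs17 was -0.41 with PTH (95% interval -0.895 to 0.072, limma adjusted p = 0.468), -0.31 with YKL-05-093 (-0.843 to 0.215, adjusted p = 0.813) and -0.10 between the treatments (-0.481 to 0.286, adjusted p = 0.823). For Rgs4, Rgs10, Rgs12 and Rgs17 the intervals against vehicle still allow changes of about 0.4 to 0.9 on the log2 scale, so they do not show that these genes held their level.

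By libraries alone, 3 of the 6 tested members had groups that did not overlap with PTH against vehicle (Rgs2 higher, Rgs3 and Rgs17 lower), where 43.1% of all tested genes did not overlap. The number was 2 with YKL-05-093 against vehicle (Rgs2 higher, Rgs3 lower), against 37.8% of genes, and 2 between the treatments (Rgs2 and Rgs12 lower with PTH), against 50% of genes. With 2 libraries a condition, groups that do not overlap are common, and these counts lie near the background. The median log2 fold change of the tested members was -0.08, -0.13 and -0.10 in the 3 comparisons, against -0.03, -0.04 and 0.01 over all tested genes.

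The share of Rgs2 in the summed RPKM of the 10 genes was 6.18% and 8.64% in the vehicle libraries, 18.1% and 19.6% with PTH and 30.9% and 32.0% with YKL-05-093. Rgs3 went from 3.96% and 4.98% to 1.25% and 1.16% with PTH and 1.16% and 1.03% with YKL-05-093. The ratio of Rgs2 to Rgs3 was thus 1.56 and 1.74, then 14.5 and 16.9, and 26.5 and 31.2, a description of the same changes. The summed RPKM was 29.3 and 30.8 with vehicle, 34.0 and 30.9 with PTH and 40.0 and 38.2 with YKL-05-093. Rgs2 was the third most abundant member in the vehicle and PTH libraries and the second with YKL-05-093, where it stood above Rgs12 in both libraries.

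**Figure D3:**
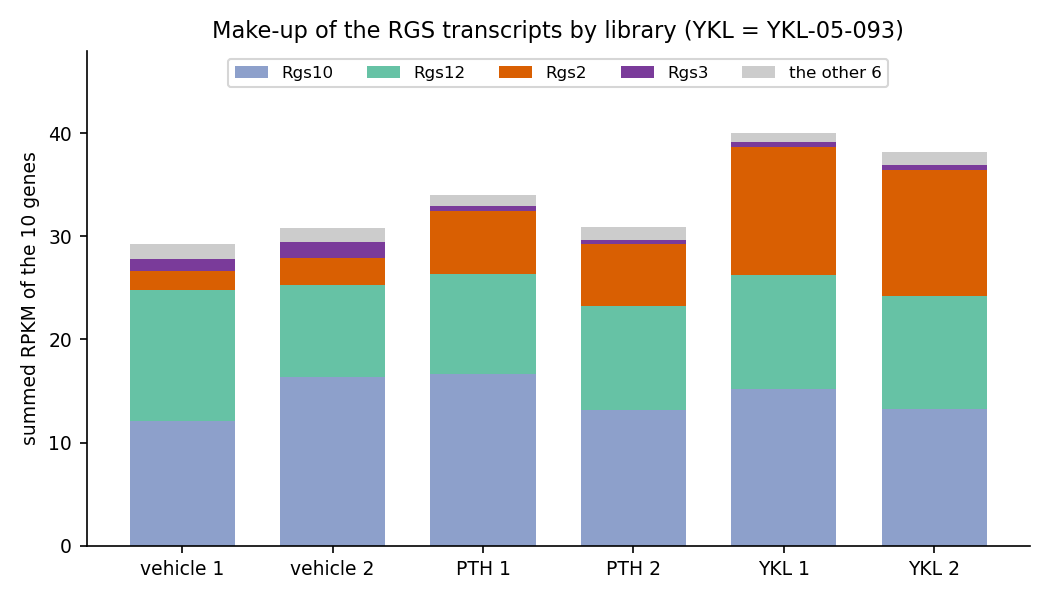
Summed RPKM of the 10 RGS genes (vertical axis, from 0) in each of the 6 libraries, stacked by gene. Rgs10 and Rgs12 make up most of every bar, and the Rgs2 segment grows from at most 8.64% with vehicle to at least 30.9% with YKL-05-093.

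The vehicle libraries stood apart from each other by gene length, and the members differ in length. For genes over 8000 bases, vehicle replicate 2 was lower than replicate 1 by a median log2 difference of -0.59, and for genes under 2000 bases it was higher by 0.30, while in the PTH and YKL-05-093 pairs every class lay between -0.06 and 0.04. Among the members, Rgs17 (9263 bases) was lower in vehicle replicate 2, by -0.42, and Rgs10 (1860 bases) was higher, by 0.44, each in the direction of its length class. Rgs3, with 10684 bases, was higher by 0.40, opposite to the other long genes. Rgs2 and Rgs12 belong to the class of 2000 to 8000 bases, with a vehicle median of -0.13. Rgs12, with 7964 bases, was lower by -0.51, and Rgs2, with 3817 bases, was higher by 0.55, opposite to that median. With the trend in gene length removed, an alternative chosen after seeing the data, Rgs2 and Rgs3 were still called with PTH, and with YKL-05-093 Rgs2 was called and Rgs3 was not (log2 fold change -1.27, adjusted p = 0.0702).

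**Figure D4:**
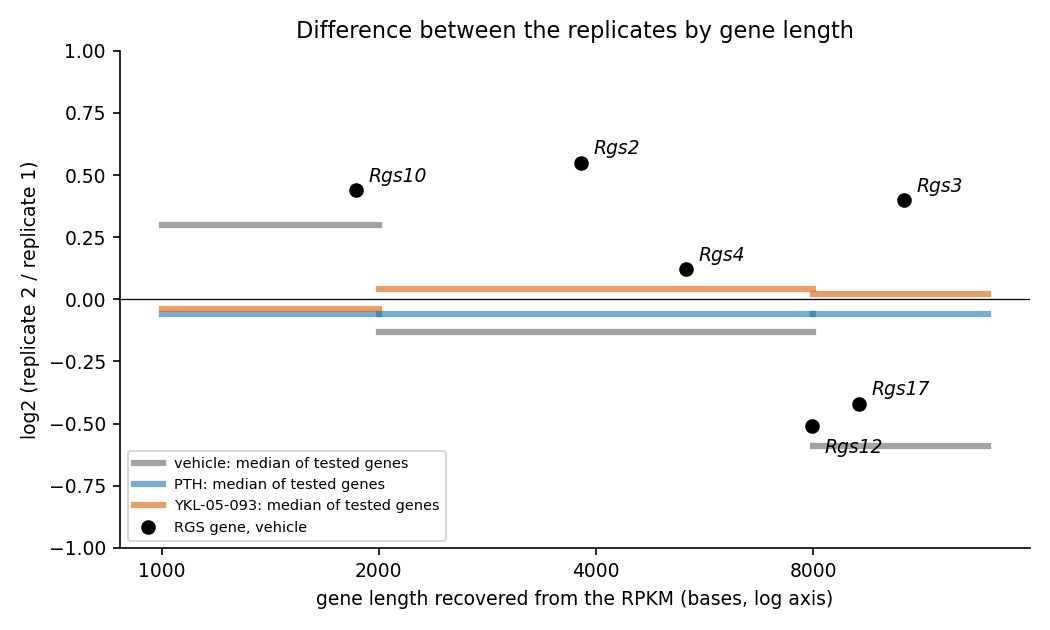
Log2 ratio of replicate 2 to replicate 1 (vertical axis) against the gene length recovered from the RPKM, in bases on a log axis. Bars are medians over the tested genes of 3 length classes in each condition, and points are the 6 tested RGS genes in the vehicle libraries. The vehicle bars run from 0.30 to -0.59 and those of the treatments stay near 0, and Rgs2 and Rgs3 lie far above the vehicle bars of their classes.

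The partners and targets of these proteins and their relatives were read from lists. Of 6 lists with 56 listed symbols, 30 genes were tested and none was called in any comparison by limma on log2 RPKM or by voom on the recovered reads. At an unadjusted p under 0.05, 5 genes passed with PTH, 3 with YKL-05-093 and 11 between the treatments by either tool, where 13.3%, 8.67% and 22.3% of all genes passed with limma on log2 RPKM. The median log2 fold change of these 30 genes was -0.12 with PTH, -0.12 with YKL-05-093 and -0.02 between the treatments, against -0.03, -0.04 and 0.01 over all tested genes. Adjusted p-values passed, without 2-fold, for 3 of the 30 genes between the treatments (Gna12, Gpsm2 and Plcb4), where 9.97% of all genes had an adjusted p under 0.05 at any fold, so this number is that of the background.

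Among the alpha subunits that RGS proteins act on, 8 of 15 were tested, and Gnai2, a Gi subunit, was highest at 126 ± 1.72 RPKM with vehicle, 114 ± 2.34 with PTH and 123 ± 2.25 with YKL-05-093 (SD, n = 2). Gnas, which encodes the Gs subunit that the PTH receptor uses, was listed at 0.64, 0.545 and 0.583 RPKM, and since its locus is known for overlapping transcripts that counting per gene may split or drop, this level is uncertain. Gna12, another alpha subunit, was higher with PTH than with YKL-05-093 by 0.27 on the log2 scale (limma adjusted p = 0.025). Of the RGS partners 5 of 9 were tested, and the highest was Gpsm2 (LGN), which holds Gi subunits in the GDP-bound form. It was at 35.9 ± 4.99 RPKM with vehicle, 21.1 ± 1.12 with PTH and 33.8 ± 1.12 with YKL-05-093, and was lower with PTH than with YKL-05-093 by -0.68 (limma adjusted p = 4.15e-06). Of the phospholipase C beta enzymes, effectors of Gq, 2 of 4 were tested. Plcb3 was highest, at 21.9, 15.7 and 18.6 RPKM with vehicle, PTH and YKL-05-093, and Plcb4 was lower with PTH than with YKL-05-093 by -0.50 (limma adjusted p = 0.00884).

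Of the other genes with an RGS domain, 7 of 17 were tested. The highest was Axin1, a scaffold of Wnt signalling, at 24.4, 21.8 and 22.8 RPKM with vehicle, PTH and YKL-05-093. Rgs19, on the same list, was at 9.32, 7.56 and 7.27 RPKM and was not called. All 3 listed guanine nucleotide exchange factors with an RGS domain were tested, the highest being Arhgef12 at 8.29, 6.71 and 6.63 RPKM. Of the receptor kinases and arrestins, which silence the receptor itself, 5 of 8 were tested, the highest being Grk6 at 25.7, 24.0 and 24.7 RPKM.

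Of 10 osteocyte markers 7 were tested. Pdpn (podoplanin, of early osteocytes) rose with PTH by 1.44 on the log2 scale (limma adjusted p = 0.0147) and Bglap (osteocalcin) by 1.58 (adjusted p = 0.0283), and Bglap was higher with PTH than with YKL-05-093 by 1.16 (adjusted p = 4.55e-06). Pth1r, the PTH receptor, was lower with PTH than with YKL-05-093 by -0.88 (adjusted p = 2.06e-06), with 57.8, 36.0 and 66.1 RPKM with vehicle, PTH and YKL-05-093 and a log2 fold change of -0.68 with PTH (adjusted p = 0.148). Against vehicle, Dmp1 had log2 fold changes of -0.26 with PTH and -0.87 with YKL-05-093 (adjusted p = 0.789 and 0.502) and Phex of 1.30 and 1.53 (adjusted p = 0.303 and 0.246), and Col1a1 and Alpl lay between 0.18 and 0.33. Bglap has near-identical copies in the mouse, so its value is uncertain. Defining genes of mature osteocytes were at or near 0. With vehicle, PTH and YKL-05-093, summed reads were 3, 0 and 3 of Sost, 6, 0 and 4 of Mepe and 0, 0 and 2 of Fgf23. Dmp1 was at 0.899 and Phex at 1.29 RPKM with vehicle. The study reports, from RT-qPCR of this cell line, that both agents lowered Sost. Here Sost was too low to be tested. Of 12 listed markers of other cell types, 3 were tested. With vehicle, PTH and YKL-05-093, Acta2 was at 210, 162 and 215 RPKM, Cd68 at 4.02, 4.02 and 4.21, and Sox9 at 1.42, 1.46 and 2.5. None of the 3 was called by limma or voom. At an unadjusted p under 0.05, 0, 1 and 2 passed in the 3 comparisons, where 13.3%, 8.67% and 22.3% of all genes passed with limma. The adjusted p passed without 2-fold between the treatments for Sox9 (-0.74, limma adjusted p = 0.00195) and Acta2 (-0.41, adjusted p = 0.000675), both lower with PTH. There 9.97% of all genes had a limma adjusted p under 0.05 at any fold. These facts describe the cells, and their part in the RGS changes was not tested.

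Genes around the members that changed were looked at in a window of 500 kb to each side, chosen after the values had been seen. Around Rgs2, 9 other genes are listed and 5 were tested, and the log2 fold changes of these 5 lay between -0.38 and 0.16. The nearest RGS neighbours, Rgs13 and Rgs1, had at most 1 read in a library and 0 reads. Around Rgs3, 28 genes are listed and 11 were tested, with log2 fold changes between -0.43 and 0.36. No adjusted p among them was under 0.579.

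The genes whose pattern over the 6 libraries was most like that of Rgs2 were Hs3st1, a heparan sulfate sulfotransferase, Acsl3, a fatty acid CoA ligase, and the unnamed locus BB557941, by the distance between log2 values centred on their means (0.732, 0.87 and 0.936). Acsl3 was at 21.3 ± 3.18 RPKM with vehicle, 60.0 ± 2.99 with PTH and 80.6 ± 3.39 with YKL-05-093, the same order as Rgs2. Hs3st1 rests on 1 to 54 reads in a library, at 0.0465, 0.51 and 0.713 RPKM with vehicle, PTH and YKL-05-093. Its vehicle mean is below the 0.1 RPKM added before the log, and it reached the filter of 0.5 RPKM only in treated libraries. Those most like Rgs3 were Rasl11a, a Ras-like GTPase, 6330403L08Rik, and Klf5, a Krüppel-like transcription factor (distances 0.424, 0.456 and 0.464). Rasl11a was at 16.4 ± 2.73, 5.83 ± 1.5 and 5.02 ± 0.0744 RPKM, and Klf5 at 1.4 ± 0.0509, 0.543 ± 0.0332 and 0.568 ± 0.0312 RPKM with vehicle, PTH and YKL-05-093. These are the nearest of 14264 genes, and some would be near by their number alone.

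**Figure D5:**
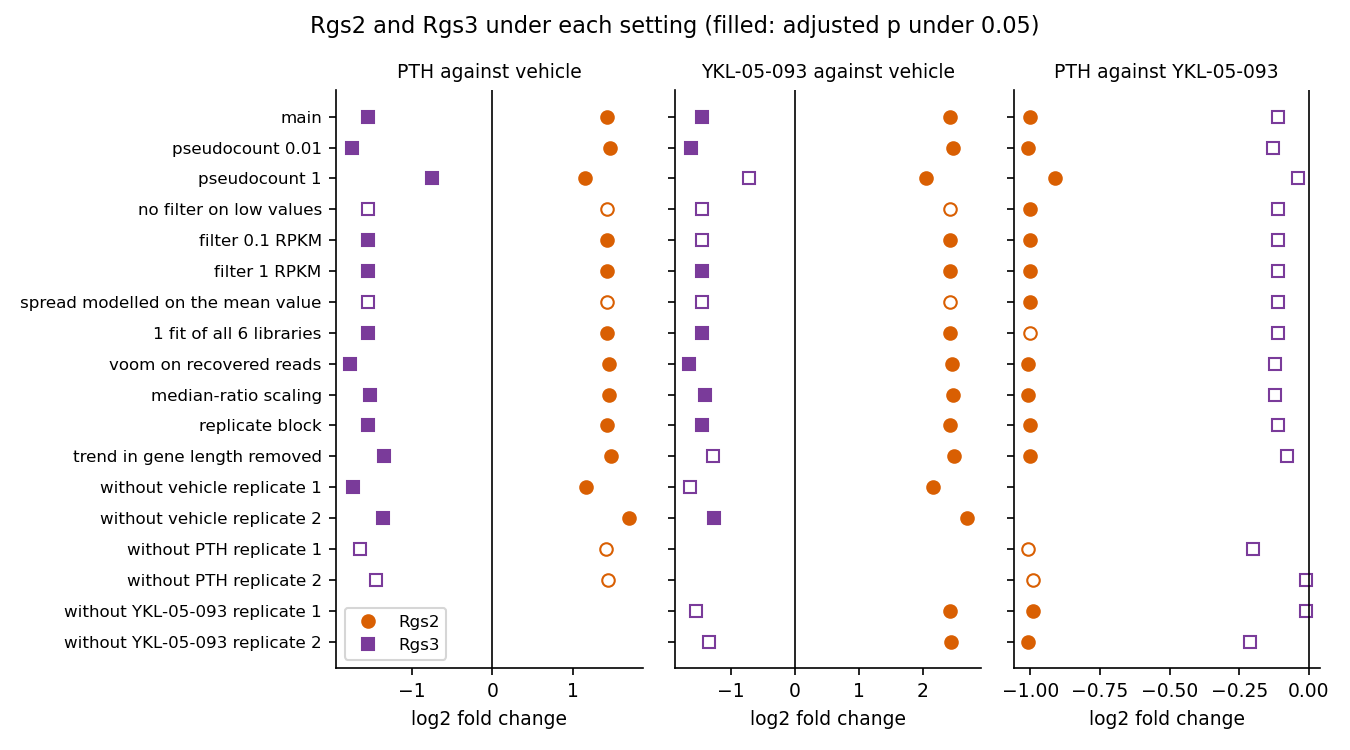
Log2 fold change (horizontal axes) of Rgs2 (circles) and Rgs3 (squares) under the setting of the report, named main, and each alternative, in the 3 comparisons. Filled symbols have an adjusted p under 0.05. The Rgs2 values stay between 1.15 and 1.70 with PTH and between 2.05 and 2.70 with YKL-05-093, and Rgs3 stays left of 0, while open symbols show where the adjusted p was 0.05 or more.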

How the data were processed

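Reads had been aligned by the authors with STAR (genome mm10, GRCm38) and assigned to Ensembl genes with HTSeq. They deposited RPKM values on a linear scale, 1 column per library, without scaling between libraries. Read numbers were recovered from the steps between RPKM values by finding gene lengths and library totals for which every value is a whole number of reads, within 0.001 read. The annotated length fitted 36% of the genes above 0. For the others, most members among them, the smallest length that gave whole reads was taken. Their read numbers could be larger, mainly for genes of few reads such as Rgs5 and Rgs14, and the 3-read floors depend on the same lengths. Totals were 17505798 to 27983585. The alignment and counting settings are not given in the sources used here.

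Tests used limma 3.58.1 (R 4.3.3). The input was log2(RPKM + 0.1) of the 14264 genes that reached 0.5 RPKM in 2 or more libraries, in a separate fit of 4 libraries per comparison, with the prior variance trended on mean log2 recovered reads and Benjamini-Hochberg adjustment over all genes tested. The procedure was tested on simulated libraries with the same spread setting for every gene and no trend in gene length. That simulation does not cover the difference by gene length between the vehicle libraries. Intervals cover 95%. Positions are those of GENCODE M21. The members, gene lists, tests and settings were chosen with earlier results of these data known. Named genes are all 10 members, called genes of the lists or else the highest of each list, and the 3 genes nearest to each called member. The Rgs19, Gnas, Gpsm2, Gna12, Plcb4, Pth1r and Dmp1 values and those of the other markers and of the neighbours were added after their values were seen. Alternatives changed the pseudocount, the filter, the model of the spread, the libraries in the fit, the scaling, the replicate block and the measure.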

Additional observations from a re-analysis of the deposited data

How the results depend on the processing

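With 2 members called in each comparison with vehicle and 1 between the treatments, the number of members called with PTH became 1 with a pseudocount of 1, and 0 without the filter (0 genes called by limma, 2343 at an unadjusted p under 0.05) or with the variance trend taken over mean expression, and lay between 0 and 2 with a library left out. With YKL-05-093 it became 1 with a pseudocount of 1, a filter of 0.1 RPKM or the length trend removed, 0 without the filter (0 genes called, 1734 unadjusted) or with the variance trend taken over mean expression, and 1 to 2 with a library left out. Between the treatments it became 0 with a pseudocount of 1 or 1 fit of all 6 libraries (Rgs2 adjusted p = 0.0522), and 0 to 1 with a library left out. The cause was not tested. Rgs2 and Rgs3 kept their direction under all settings.

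Some changes of members that were not called reversed in sign and others did not. Rgs17 against vehicle, Rgs4 with YKL-05-093 and Rgs12 between the treatments kept their sign under every setting that tested them. With the length trend removed, Rgs4 and Rgs12 came to 0.05 each with PTH, and Rgs10 to 0 with YKL-05-093. With a library left out, the log2 fold change with PTH ran from -0.17 to 0.09 for Rgs4, -0.14 to 0.29 for Rgs10 and -0.36 to 0.15 for Rgs12, with YKL-05-093 from -0.20 to 0.23 for Rgs10 and -0.20 to 0.31 for Rgs12, and between the treatments from -0.11 to 0.23 for Rgs10, -0.01 to 0.48 for Rgs4 and -0.25 to 0.06 for Rgs17. A lone library left in a group was assumed to vary like the other group.

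No pairing by replicate number showed in the values, as deviations of same-numbered libraries correlated at -0.03 to -0.05 over genes. Whether same-numbered libraries were handled together is not given, and this correlation cannot settle it. With the replicate number as a block, 440 genes were called with PTH, 215 with YKL-05-093 and 196 between the treatments, and 2, 2 and 1 members. Over all genes, 272, 95 and 172 were called, against 160, 6 and 137 with the variance trend taken over mean expression, 334, 173 and 102 in 1 fit of all 6 libraries, 212, 55 and 98 with a pseudocount of 1, 312, 178 and 159 with the length trend removed, and 1421 between the treatments with no limit on the fold. A filter of 0.1 RPKM left 57 for YKL-05-093. With a library left out the counts were 14 to 669, 11 to 321 and 0 to 155. Depth limits Rgs1, Rgs5, Rgs14 and Rgs16, which were not tested.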
